A study of Mus musculus with 24 samples.

Results

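Toll-like receptors and the proteins that hand them bacterial products were examined in mouse liver with and without microbes. The set comprised 10 genes: Tlr2, Tlr3, Tlr4, Tlr5, Tlr9, Cd14, Lbp, Ly96, Myd88 and Nfkbia. They were chosen by name, and each was read through the probe set that the platform annotation pairs with that symbol alone. A probe set was found for 9 of the 10, among 19938 genes measured in all, with 1 probe set each; Tlr5, the flagellin receptor, was not analysed here. Liver RNA was hybridised to the Affymetrix MoGene 1.0 ST array for male wild-type C57Bl/6 mice in a design that crossed diet with bacterial status. The groups were germ-free mice fed menhaden fish oil, conventional mice fed menhaden fish oil, germ-free mice fed lard and conventional mice fed lard, with 6 mice each. All mice ate 45% of energy as fat for 11 weeks and were fasted for 4 hours before sampling. The labels give the age as 11 weeks, which leaves it uncertain whether age at the start or at sampling was meant. The labels do not say where the germ-free and conventional mice were bred, so stock and bacterial status cannot be told apart, and no chow-fed group was measured.

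The liver receives blood straight from the gut, and with it traces of bacterial material. Lipopolysaccharide, the endotoxin of Gram-negative bacteria, is picked up by the plasma protein Lbp, which hepatocytes secrete, passed to Cd14, and presented by Ly96 to Tlr4. Tlr2 senses bacterial lipoproteins, Tlr9 unmethylated DNA and Tlr3 double-stranded RNA. All of these receptors except Tlr3 signal through the adaptor Myd88, and the signal frees NF-kB from its inhibitor, the product of Nfkbia, which is itself a target of NF-kB. In liver these genes are used both by hepatocytes and by non-parenchymal cells such as Kupffer cells, the resident macrophages.

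Tlr3 and Nfkbia were the genes of the set called as different between groups. Tlr3 was lower in fish oil germ-free livers than in either neighbouring group: it fell by 0.68 ± 0.13 on the log2 scale (SE) against fish oil conventional livers and by 0.63 ± 0.13 against lard germ-free livers. Nfkbia was 0.48 ± 0.12 higher in fish oil germ-free than in fish oil conventional livers. The other 7 genes, among them the whole route from lipopolysaccharide to Tlr4, passed the test in no comparison of the main fit. Of these, Lbp, Tlr2, Tlr9 and Myd88 each passed in some alternative settings, so a missing call does not show an unchanged gene. A gene was called at a Benjamini-Hochberg adjusted p under 0.05 in limma, fitted over all 19938 genes.

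The 250 bases upstream of the RefSeq start of Tlr3 and Nfkbia (GRCm38.p6) are shown because these genes carry the differences reported. Both are on the minus strand, at chr8:45410381-45410630 and chr12:55492648-55492897, and are printed 5′ to 3′ on the gene's strand. Capitals mark matches, on either strand, to the kappaB consensus that NF-kB binds and to the interferon regulatory factor core AANNGAAA. The motifs were chosen after the sequences were seen.
Tlr3: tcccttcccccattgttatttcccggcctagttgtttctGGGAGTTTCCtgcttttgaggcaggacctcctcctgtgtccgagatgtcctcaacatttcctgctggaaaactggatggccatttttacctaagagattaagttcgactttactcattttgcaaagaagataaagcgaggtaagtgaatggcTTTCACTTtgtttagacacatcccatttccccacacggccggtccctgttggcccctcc
Nfkbia: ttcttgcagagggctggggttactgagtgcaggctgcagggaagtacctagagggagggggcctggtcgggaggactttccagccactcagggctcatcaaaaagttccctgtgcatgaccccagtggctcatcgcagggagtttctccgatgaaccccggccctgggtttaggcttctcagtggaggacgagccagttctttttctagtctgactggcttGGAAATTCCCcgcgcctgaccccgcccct

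In the Tlr3 window the kappaB match GGGAGTTTCC lay 211 bases before the start, and TTTCACTT, which reads as the interferon regulatory factor core on the opposite strand, lay 59 bases before it. In the Nfkbia window GGAAATTCCC lay 29 bases before the start, and no interferon regulatory factor core was found. Of 32851 RefSeq promoter windows of the same 250 bases, 7.25% held a kappaB match and 21.3% held an interferon regulatory factor core. A window was available for 6 of the 10 genes, and of these Tlr2 also held kappaB matches (2, overlapping by all but 1 base) and both Tlr2 and Myd88 held the interferon regulatory factor core. A match to letters is not evidence that a factor binds.

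Values are the authors' RMA signals on the log2 scale. The text gives the lowest, median and highest of the 6 arrays of a group. Means, SDs and tests count fish oil germ-free mice 3 and 4 as 1 sample, because their arrays were closer to each other than any other pair within a group, so n = 5 there and n = 6 in the other groups. The fit dropped no other array. Signals of different probe sets are not compared as levels. In these bulk samples, fewer cells of a type and less RNA per cell cannot be told apart.

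**Figure D1:**
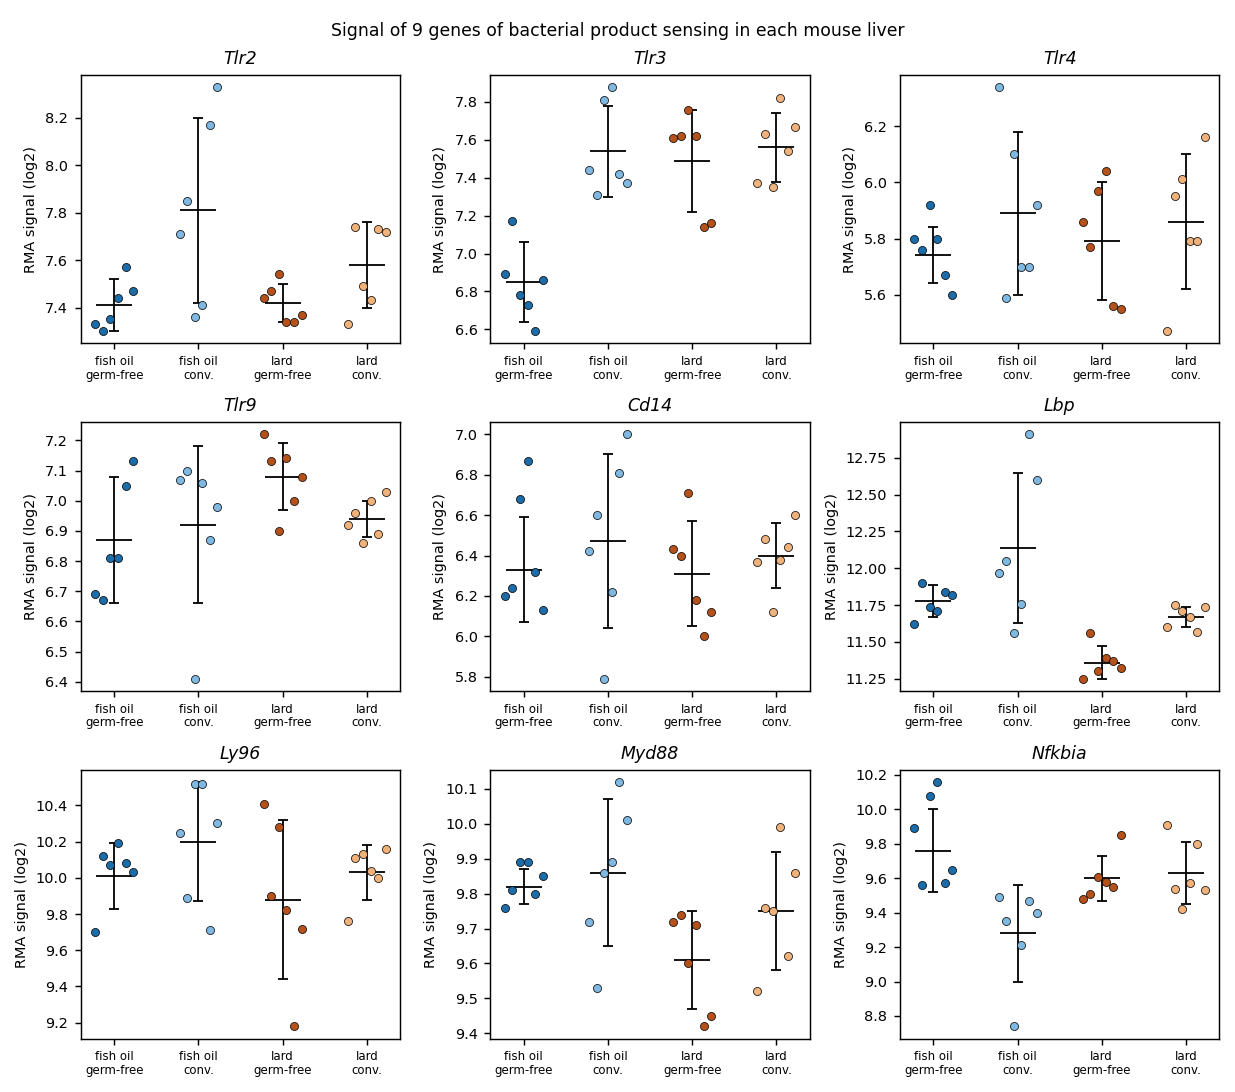
Signal of each of the 9 genes (log2, vertical axis) in every mouse liver, 1 point per array, by group. Horizontal bars are group means and whiskers are 1 SD, with n = 5 in fish oil germ-free (mice 3 and 4 averaged) and n = 6 in the other groups. Every fish oil germ-free point for Tlr3 lies below every fish oil conventional point, and 7 of the 9 genes have their widest SD in fish oil conventional livers. The median SD over all genes was also highest in that group, at 0.16.

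Across the set, the count of called genes was small in every comparison. In germ-free against conventional mice on fish oil, 2 of 9 genes were called, beside 6.91% of all genes (3.01% higher and 3.89% lower). Between germ-free and conventional lard-fed mice the count was 0 of 9, beside 1.82% of all genes called (1.13% higher and 0.687% lower). Before adjustment 1 of 9 had a limma p under 0.05, beside 12.2% of all genes. For fish oil against lard, 1 of 9 was called in germ-free mice, beside 13.2% of all genes (4.58% higher and 8.59% lower). In conventional mice the count was 0 of 9, beside 0.808% of all genes (0.206% higher and 0.602% lower). Before adjustment 2 of 9 had a limma p under 0.05 there, beside 16.6% of all genes. The difference between the diet effects in germ-free and conventional mice was called for 0 of 9, beside 0.607% of all genes (0.216% higher and 0.391% lower). For that difference 2 of 9 had an unadjusted limma p under 0.05, beside 12.2% of all genes. The counts of 1 and 2 among 9 genes were not tested against these shares. The median difference over the 9 genes lay between -0.16 and 0.08 in these 5 comparisons, and that over all genes between -0.026 and 0.013.

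**Figure D2:**
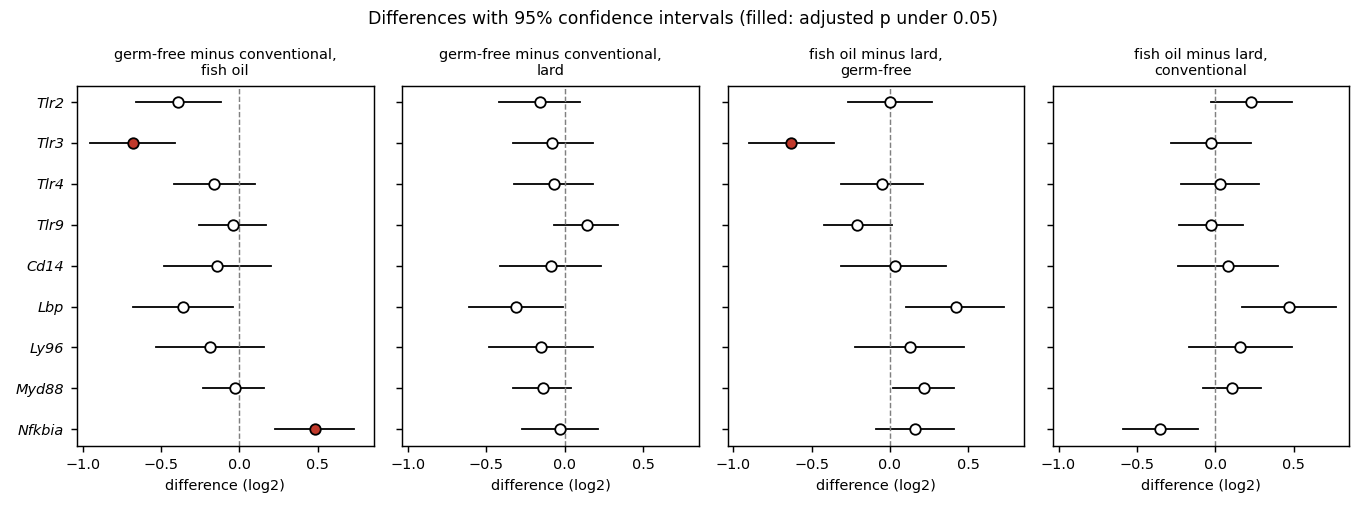
Log2 difference (horizontal axis) of each of the 9 genes in the 4 pairwise comparisons, with its 95% confidence interval from limma. Filled points passed an adjusted p of 0.05: Tlr3 in both comparisons that involve fish oil germ-free livers, and Nfkbia in germ-free against conventional mice on fish oil.

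Lbp, which captures lipopolysaccharide in plasma, had the widest range of the 9 genes, from 11.25 to 12.91 over the 24 arrays. Its lowest, median and highest signals were 11.62, 11.78 and 11.90 in fish oil germ-free livers and 11.56, 12.01 and 12.91 in fish oil conventional livers. They were 11.25, 11.34 and 11.56 in lard germ-free livers and 11.57, 11.69 and 11.75 in lard conventional livers. The 2 germ-free groups did not overlap, fish oil being the higher, and on lard the germ-free livers lay just below the conventional ones. None of these differences was called. Fish oil minus lard was 0.42 ± 0.15 in germ-free mice (95% confidence interval 0.10 to 0.73, adjusted p = 0.074) and 0.47 ± 0.15 in conventional mice (0.17 to 0.77, adjusted p = 0.106). Germ-free minus conventional was -0.36 ± 0.15 on fish oil (adjusted p = 0.176) and -0.31 ± 0.15 on lard (adjusted p = 0.394). Over 38 alternative settings the adjusted p of fish oil against lard in germ-free mice ran between 0.000868 and 0.352, and 7 of the 38 passed. Fitted in its own groups alone, that difference was called (adjusted p = 0.00117), as was germ-free minus conventional on lard (-0.31, adjusted p = 0.014). The main fit pools the spread over all groups, and the SD of Lbp was 0.51 in fish oil conventional livers. It was 0.11 in each germ-free group and 0.07 in lard conventional livers.

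Cd14, the receptor that takes lipopolysaccharide from Lbp, did not separate any pair of groups. Its lowest, median and highest signals were 6.13, 6.28 and 6.87 in fish oil germ-free livers and 5.79, 6.51 and 7.0 in fish oil conventional livers. They were 6.00, 6.29 and 6.71 in lard germ-free livers and 6.12, 6.41 and 6.60 in lard conventional livers. Germ-free minus conventional was -0.14 ± 0.16 on fish oil (adjusted p = 0.702) and -0.09 ± 0.16 on lard (adjusted p = 0.92), with fish oil minus lard at 0.03 ± 0.16 in germ-free and 0.08 ± 0.16 in conventional mice. Ly96, which binds lipopolysaccharide on Tlr4, averaged 10.01 ± 0.18 in fish oil germ-free and 10.20 ± 0.33 in fish oil conventional livers (SD), and 9.88 ± 0.44 in lard germ-free and 10.03 ± 0.15 in lard conventional livers. All pairs of groups overlapped for Ly96, and its differences lay between -0.19 and 0.16.

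Tlr4, the lipopolysaccharide receptor, also overlapped between all groups. It averaged 5.74 ± 0.10 in fish oil germ-free, 5.89 ± 0.29 in fish oil conventional, 5.79 ± 0.21 in lard germ-free and 5.86 ± 0.24 in lard conventional livers (SD). Germ-free minus conventional was -0.16 on fish oil, with a 95% confidence interval of -0.42 to 0.10, and -0.07 on lard, with an interval of -0.32 to 0.18. The diet differences were -0.05 (-0.31 to 0.21) in germ-free and 0.03 (-0.22 to 0.28) in conventional mice. None of the 4 intervals reached the size of the Tlr3 differences. The Tlr4 probe set was dim, at a mean of the 28.4th percentile of genes on the arrays, and RMA signals can understate the differences of dim probe sets.

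Tlr2, the lipoprotein receptor, had its highest signals in conventional mice. Its lowest, median and highest signals were 7.30, 7.39 and 7.57 in fish oil germ-free livers and 7.36, 7.78 and 8.33 in fish oil conventional livers. They were 7.34, 7.40 and 7.54 in lard germ-free livers and 7.33, 7.61 and 7.74 in lard conventional livers. The germ-free groups averaged 7.41 ± 0.11 on fish oil and 7.42 ± 0.08 on lard (SD), while the conventional groups spread above them and overlapped them. Germ-free minus conventional was -0.39 ± 0.13 on fish oil (adjusted p = 0.0699) and -0.16 ± 0.12 on lard (adjusted p = 0.726). The value on fish oil passed in 7 of 38 alternatives, with an adjusted p between 0.0128 and 0.337. Tlr9, the receptor for bacterial DNA, averaged 6.87 ± 0.21 in fish oil germ-free, 6.92 ± 0.26 in fish oil conventional, 7.08 ± 0.11 in lard germ-free and 6.94 ± 0.06 in lard conventional livers (SD), and its largest difference was -0.21 ± 0.10 for fish oil minus lard in germ-free mice (adjusted p = 0.218).

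Tlr3, the receptor for double-stranded RNA whose upstream window is printed above, was set apart by 1 group. Its lowest, median and highest signals were 6.59, 6.82 and 7.17 in fish oil germ-free livers and 7.31, 7.43 and 7.88 in fish oil conventional livers. They were 7.14, 7.62 and 7.76 in lard germ-free livers and 7.35, 7.58 and 7.82 in lard conventional livers. The fish oil germ-free livers lay below all fish oil conventional livers, and all but their highest lay below the lard germ-free livers, where mice 5 and 6 (7.14 and 7.16) were the low ones.

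For germ-free minus conventional on fish oil the Tlr3 difference was -0.68 ± 0.13, or 1.6-fold lower (95% confidence interval -0.95 to -0.41, adjusted p = 0.00226). For fish oil minus lard in germ-free mice it was -0.63 ± 0.13, or 1.55-fold lower (-0.90 to -0.36, adjusted p = 0.00179). These comparisons share the fish oil germ-free mice and are not independent of each other. Where that group was not involved the differences were small, at -0.08 ± 0.12 for germ-free minus conventional on lard and -0.03 ± 0.12 for fish oil minus lard in conventional mice. The diet effect in germ-free minus that in conventional mice was -0.61 ± 0.18 with an adjusted p of 0.118, so the diet effects were not shown to differ. Both Tlr3 calls passed in all 38 alternatives, with values of -0.80 to -0.58 and of -0.71 to -0.50.

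By Pearson correlation over the 23 samples, the genes whose pattern was most like that of Tlr3 were Rbm43 (r = 0.91), Rcor3 (r = 0.90) and Naip2 (r = 0.90). The samples share group and array run, and these values are a description. Rcor3 averaged 7.45 ± 0.26 in fish oil germ-free, 8.14 ± 0.31 in fish oil conventional, 8.15 ± 0.18 in lard germ-free and 8.31 ± 0.16 in lard conventional livers (SD), so that its lowest group was also fish oil germ-free. Because Rcor3 was picked for its likeness to Tlr3 over the same samples, the shared low group is not a separate observation. Naip2 belongs to a family of near-identical genes, and its probes may read more than 1 of them.

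Myd88, the adaptor shared by most Toll-like receptors, was not called. Its lowest, median and highest signals were 9.76, 9.83 and 9.89 in fish oil germ-free livers and 9.53, 9.88 and 10.12 in fish oil conventional livers. They were 9.42, 9.66 and 9.74 in lard germ-free livers and 9.52, 9.76 and 9.99 in lard conventional livers. The 2 germ-free groups did not overlap, fish oil being the higher, with a difference of 0.22 ± 0.09 (95% confidence interval 0.02 to 0.41, adjusted p = 0.144). Germ-free minus conventional was -0.03 ± 0.09 on fish oil and -0.14 ± 0.09 on lard.

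Nfkbia, which encodes the inhibitor that holds NF-kB in the cytoplasm, was lowest in fish oil conventional livers. Its lowest, median and highest signals were 9.56, 9.77 and 10.16 in fish oil germ-free livers and 8.74, 9.38 and 9.49 in fish oil conventional livers. They were 9.48, 9.57 and 9.85 in lard germ-free livers and 9.42, 9.55 and 9.91 in lard conventional livers. Germ-free and conventional livers did not overlap on fish oil, whereas on lard they did. Germ-free minus conventional was 0.48 ± 0.12 on fish oil, or 1.4-fold higher (95% confidence interval 0.23 to 0.73, adjusted p = 0.0169), and -0.03 ± 0.12 on lard (adjusted p = 0.972). The call on fish oil was lost when only the fish oil groups were fitted (adjusted p = 0.0873) and without fish oil germ-free mouse 1 (adjusted p = 0.0532); the difference was 0.37 without fish oil conventional mouse 3, the lowest liver. Fish oil minus lard was -0.35 ± 0.12 in conventional mice (adjusted p = 0.131) and 0.16 ± 0.12 in germ-free mice, and the diet effects were not shown to differ (0.51 ± 0.17, adjusted p = 0.173). The genes most like Nfkbia in pattern were Tpcn1 (r = 0.86), Hint2 (r = 0.83) and Pdzd8 (r = 0.82).

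The spread among mice was uneven. In fish oil conventional livers 7 of the 9 genes had their widest SD, and the median SD of the 9 was 0.29, against 0.18 in fish oil germ-free, 0.14 in lard germ-free and 0.17 in lard conventional livers. The median over all genes was 0.16, 0.13, 0.14 and 0.12 in the same order of groups, so it too was highest in fish oil conventional livers. The share of all genes with their widest SD there was not counted, so the 7 of 9 cannot be read as a trait of the set. Fish oil conventional mice 5 and 6, with Saa1 at 11.64 and 10.81 against 6.03 to 7.61 in the other 4 mice of their group, held the 2 highest signals of all 24 arrays for Lbp, Tlr2 and Myd88, and ranks 3 and 1 for Cd14. Saa1 encodes serum amyloid A, an acute phase protein that liver makes during inflammation. Lcn2, another acute phase gene, stood at 13.17 and 13.16 in these mice and between 9.61 and 10.32 in the other 4. In Nfkbia the same mice ranked 19 and 21 of 24. The part of an acute phase response in the group differences was not tested. Without mice 5 and 6, Tlr3 was still called in both comparisons (-0.75, adjusted p = 0.00191, for germ-free minus conventional on fish oil) and Nfkbia in its own (0.56, adjusted p = 0.00945). The uncalled differences of the genes in which these mice were high moved without them. Lbp then stood at 0.16 for fish oil minus lard in conventional mice and at -0.05 for germ-free minus conventional on fish oil. For Tlr2 the same comparisons gave 0.01 and -0.17, and for Myd88 0.00 and 0.07. Cd14 changed sign in both, to -0.14 and 0.07. Lbp was then called for fish oil minus lard in germ-free mice (0.42, adjusted p = 0.000868) and for germ-free minus conventional on lard (-0.31, adjusted p = 0.0293), comparisons that hold neither mouse but share the estimate of the spread.

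**Figure D3:**
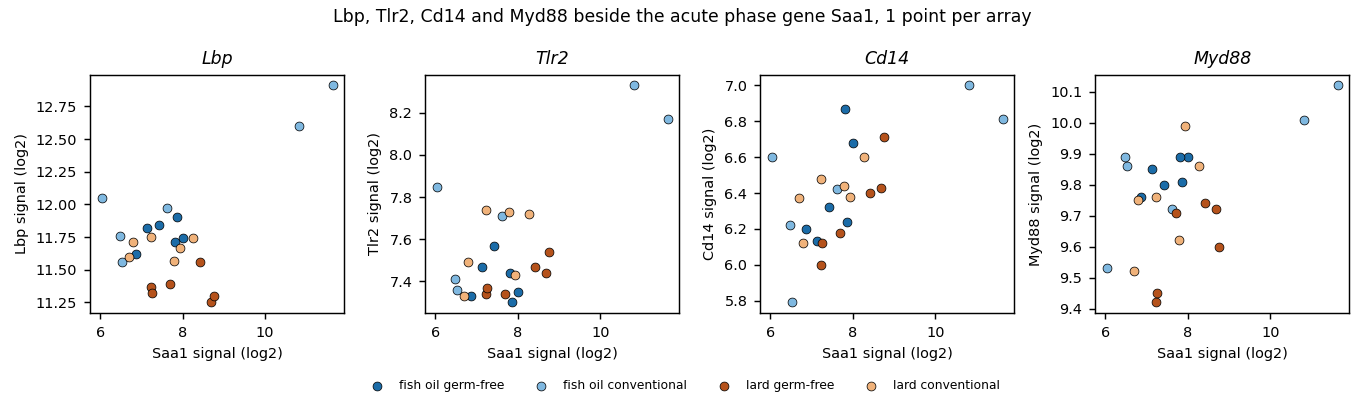
Signals of Lbp, Tlr2, Cd14 and Myd88 (log2, vertical axes) against that of the acute phase gene Saa1 (log2, horizontal axes), 1 point per array, coloured by group. Fish oil conventional mice 5 and 6 sit at the far right, with Saa1 at 11.64 and 10.81, and hold the 2 highest signals for Lbp, Tlr2 and Myd88.

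Beside the set, 80 other genes of the pathway were listed by role, and 72 of them had a value. On fish oil, 16 of the 72 fell and 1 rose in germ-free against conventional mice, which is 23.6%, beside 6.91% of all genes called. On lard 1 rose and 1 fell, or 2.78%, beside 1.82% of all genes. In germ-free mice, fish oil against lard called 12 of 72, or 16.7%, with 7 higher and 5 lower, beside 13.2% of all genes. In conventional mice it called 1, or 1.39%, beside 0.808% of all genes. The shares other than that of 23.6% lay near those over all genes, and none of the 4 was tested against them. The median difference over the 72 genes lay between -0.07 and 0.06 in every pairwise comparison. Without fish oil conventional mice 5 and 6 these counts were 16, 2, 15 and 0, and without germ-free mice 5 and 6 of both diets they were 18, 0, 9 and 1, in the same order of comparisons.

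On fish oil, 3 of the 6 other Toll-like receptors measured fell in germ-free livers. Tlr13, which recognises bacterial ribosomal RNA in mice, averaged 6.88 in fish oil germ-free and 7.59 in fish oil conventional livers (-0.71 ± 0.16, adjusted p = 0.00915). Tlr8 fell by 0.51, and Tlr1, whose product pairs with that of Tlr2 in lipoprotein sensing, fell by 0.46. The chaperone Unc93b1, which carries the nucleic acid receptors Tlr3 and Tlr9 to endosomes, fell by 0.29 ± 0.07 (adjusted p = 0.0129). Of the 13 measured restraints on the pathway 4 fell: Ly86 by 1.04, Cd180, which forms a complex with the Ly86 product, by 0.82, Irak3 by 1.01 and Tnfaip8l2 by 0.31. The lipopolysaccharide-deacylating enzyme Aoah fell by 0.61, the scavenger receptor Msr1 by 0.93 and the peptidoglycan sensor Nod1 by 0.38, and the adhesion genes Icam1 and Vcam1 by 0.63 and 0.43. Over the alternatives the call was lost in 6 of 37 for Tlr8, 6 of 38 for Tnfaip8l2, 4 of 37 for Aoah, 2 of 38 for Unc93b1 and 1 of 37 for Tlr1. Tlr13, Ly86, Cd180, Irak3, Msr1, Nod1 and Icam1 kept theirs in all 38.

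Irf7, an interferon regulatory factor activated below the endosomal receptors, averaged 8.55 in fish oil germ-free and 9.25 in fish oil conventional livers (-0.69 ± 0.12, adjusted p = 0.00127), and the kinase gene Ikbke fell by 0.65. Among 10 adaptors and kinases, Tab1 fell by 0.32 and Traf6, the ubiquitin ligase that acts after Myd88, rose. Traf6 averaged 9.75 ± 0.10 in fish oil germ-free, 9.29 ± 0.16 in fish oil conventional, 9.20 ± 0.10 in lard germ-free and 9.26 ± 0.05 in lard conventional livers (SD). Its difference was 0.46 ± 0.07 for germ-free minus conventional on fish oil (adjusted p = 0.000508), and no fish oil germ-free liver overlapped the fish oil conventional ones. Of the 15 cytokine and adhesion genes that NF-kB controls, Tnf, Il1b and Il6 were not called in this comparison, at -0.23, -0.29 and 0.08. Of the 15, 5 lay below the 25th percentile of genes, the lowest at 1.9. Il6 was faint, with group means of 3.39 to 3.52, so its small difference says little about the gene.

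Fish oil against lard in germ-free mice called 12 of the 72, and shares the fish oil germ-free mice with the comparison above. Traf6, Tlr1, Irf7 and Cd180 were called in the same direction in both comparisons. Higher were Traf6 (0.55 ± 0.07, adjusted p = 3.72e-05), Tab2 (0.46), the transcription factor genes Irf5 (0.78), Rel (0.41), Irf3 (0.26) and Relb (0.23), and the neutrophil chemokine gene Cxcl1 (0.81). Tlr12, which senses a protozoan profilin in mice, averaged 6.70 in fish oil germ-free and 8.09 in lard germ-free livers (-1.39 ± 0.20, adjusted p = 6.78e-05), without overlap. Tlr1 fell by 0.39, Irf7 by 0.54, Cd180 by 0.44 and Alpl, a phosphatase gene whose product can detoxify lipopolysaccharide, by 1.00. In conventional mice Tlr12 was the 1 gene called, at 7.03 on fish oil and 7.96 on lard (-0.93 ± 0.19, adjusted p = 0.0344), a call lost in 10 of 38 alternatives. They included a covariate for the clock, Dbp minus Arntl (-0.70, adjusted p = 0.241), and the comparison's own groups (-0.93, adjusted p = 0.158). Leaving out fish oil conventional mice 5 and 6 together gave -0.82 (adjusted p = 0.0887). The call was also lost without fish oil conventional mouse 2, 5 or 6 or lard conventional mouse 3, 4, 5 or 6 alone (adjusted p between 0.0554 and 0.0864). In germ-free against conventional mice on lard, Irf5 fell by 0.50 and Alpl rose by 0.81. The difference between the diet effects was called for Traf6 alone of the 72 (0.52 ± 0.10, adjusted p = 0.022). That call was lost with mouse number as a replicate block (0.51, adjusted p = 0.0559) and without germ-free mice 5 and 6 of both diets (0.49, adjusted p = 0.067). Among the fainter calls, Relb was lost in 20 of 37 alternatives, Cxcl1 and Cd180 in germ-free mice each in 9 of 38, Vcam1 in 12 of 38, and on lard Irf5 in 15 and Alpl in 7 of 38. With the clock covariate 8 of the 72 were called for fish oil against lard in germ-free mice. Tab2 (adjusted p = 0.0802), Irf3 (0.0796), Cxcl1 (0.127) and Relb (0.194) were lost there, while Traf6, Tlr12, Irf5, Rel and Alpl kept their calls in all 38 alternatives. The part of the clock was not tested.

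**Figure D4:**
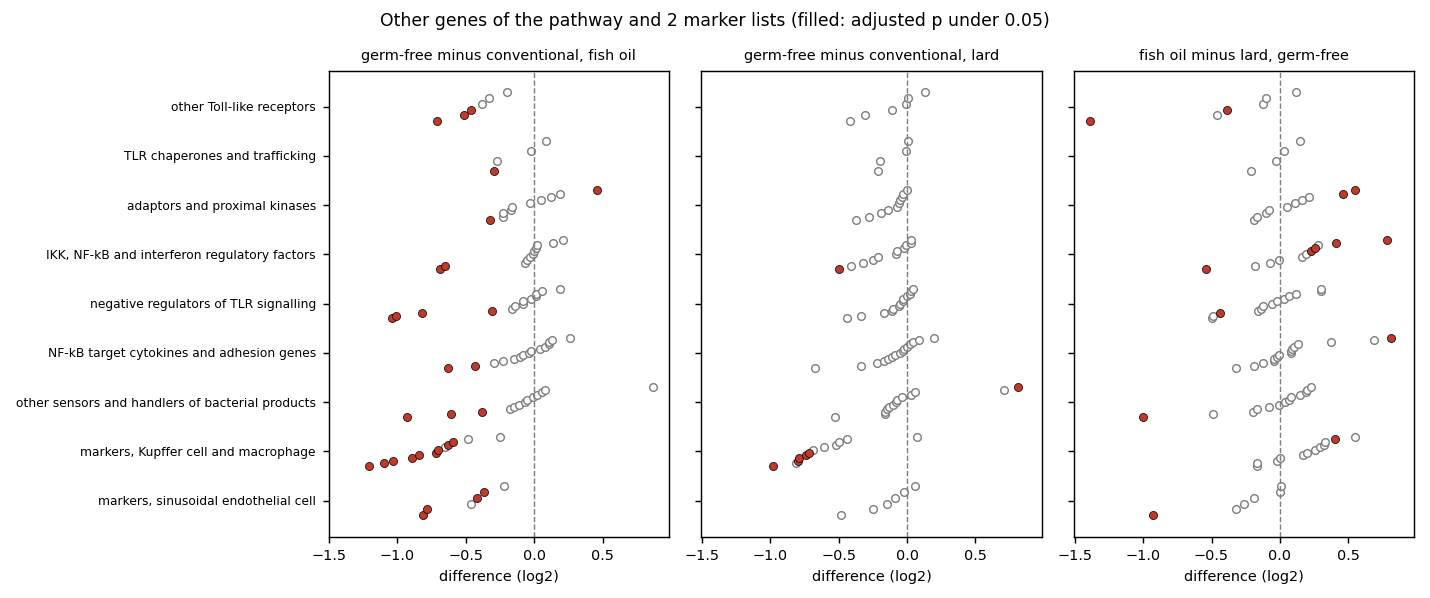
Log2 differences (horizontal axis) of the other genes of the pathway, by role, and of the Kupffer cell and endothelial marker lists, in 3 comparisons, 1 point per gene. Filled points passed an adjusted p of 0.05: on fish oil 16 of the 17 called pathway genes were lower in germ-free livers, and 9 of 12 Kupffer cell and macrophage markers were lower.

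Markers of non-parenchymal cells also differed between groups. Of 12 Kupffer cell and macrophage markers, 9 fell in germ-free against conventional mice on fish oil and 5 fell on lard, with a median difference of -0.71 in each, beside a median of -0.026 and -0.008 over all genes. On lard 0 of the 9 members and 2 of the 72 pathway genes were called, but calls were fewer there over all genes too. The share was 1.82% on lard against 6.91% on fish oil, so these counts do not compare the diets. The median difference over the 72 pathway genes was -0.07 on either diet. The call of the marker C1qc on lard was lost in 12 of 38 alternatives. The summed signal of the 12 lay between 5977 and 8284 in fish oil germ-free, 8822 and 17498 in fish oil conventional, 4566 and 8762 in lard germ-free and 9044 and 13639 in lard conventional livers, on the linear scale, and none of the 12 was below the 25th percentile of genes. Of 6 sinusoidal endothelial markers 4 fell on fish oil and 0 on lard. On lard limma gave 1 lower before adjustment of p (under 0.05), beside 12.2% of all genes in either direction. The 4 were Clec4g, Lyve1, Pecam1 and Stab2, and none was called without germ-free mice 5 and 6 of both diets (adjusted p = 0.0506, 0.131, 0.105 and 0.14 in that order). Over 38 alternatives the call was lost in 1 for Clec4g, 10 for Lyve1, 21 for Pecam1 and 19 for Stab2. In fish oil against lard in germ-free mice, where Tlr3 was also lower, 1 of the 12 macrophage markers rose (Clec4f, 0.40, adjusted p = 0.0492) and none fell. In the same comparison 1 of 6 endothelial, 3 of 5 dendritic cell, 4 of 6 stellate cell and 3 of 4 cholangiocyte markers fell. Over all genes 4.58% were called higher and 8.59% lower there, and the marker counts were not tested against these shares. The Clec4f call was lost in 20 of 38 alternatives, with 0.21 (adjusted p = 0.55) without germ-free mice 5 and 6 of both diets. Among the others the calls of Cd209a and Flt3 were each lost in 12 of 37, that of Des in 11 of 38 and that of Krt7 in 7 of 37. The part of these cell types in the differences of Tlr3, Nfkbia and the pathway genes was not tested. The 7 hepatocyte markers measured, such as Alb and Apoa1, all stood at or above the 98.8th percentile of genes. None of them was called in limma. Before adjustment, 2 of the 7 had a limma p under 0.05 for fish oil against lard in germ-free mice, both higher, beside 25.2% of all genes in either direction. In the other comparisons 0 had one.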

How the data were processed

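Liver RNA of 24 mice was measured on 1 array each, and groups were taken from the labels. The authors deposited log2 signals. Per the file headers these came from a gene-level RMA run of all arrays together in Expression Console (engine 1.1.2800.28061, array library r4); the submitters' processing notes also name RMA. Its quantile normalization hides a change shared by most genes, and its median polish can blend genes that share probe sequence. The 2 deposited log2 tables were equal to within 0.005, and the one with more decimals was used. No build for the arrays was found in the sources used. Arrays give no read depth, so the number of mice limits the precision, and nothing in the labels names litters, cages or batches.

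Of 35556 probe sets, 21789 had 1 symbol, 1621 several and 12146 none listed; the highest-mean probe set was kept per gene. Limma 3.58.1 in R 4.3.3 (lmFit, eBayes, 4 group means, pooled spread) gave two-sided p-values, adjusted by Benjamini-Hochberg over 19938 genes, and the procedure was tested on simulated data. Members, lists, tests and alternatives were chosen with earlier results of these data known. Named genes were the members, at most 5 called genes per list and comparison with the smallest p, and the 3 genes most like each called member; the acute phase genes Saa1 and Lcn2 and the uncalled cytokine genes Tnf, Il1b and Il6 were picked after their values were seen.

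Fish oil germ-free mice 3 and 4 were the closest of the 60 pairs within groups, and averaging them was decided from an earlier analysis. How far they stood apart depended on what was compared. The SD of their difference was 0.123 over the 300 most variable genes (next pair 0.349), 0.141 over all genes (0.176), 0.525 over the 300 most variable probe sets, unannotated ones included (0.631), and 0.231 over all probe sets (0.234). The first of these was computed after the third had given a narrower gap. The fit with 24 separate samples is among the alternatives. Whether the pair is 1 liver measured on 2 arrays was not tested.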

Additional observations from a re-analysis of the deposited data

Results flagged for a closer look

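In 4 of 36 gene and group combinations the highest or lowest mouse lay far from the others of its group by Dixon's test; chance gives about 1 in 20. They were Tlr9 in fish oil conventional mouse 3 (6.41), Ly96 in fish oil germ-free mouse 1 (9.70), Nfkbia in fish oil conventional mouse 3 (8.74) and Nfkbia in lard germ-free mouse 6 (9.85). Fish oil conventional mouse 3 also had the lowest Cd14 signal of the 24 arrays (5.79).

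The diet effect differed between germ-free and conventional mice, by the test of the difference itself, for 4 of the genes named: Col1a1 (-0.76) and Col3a1 (-0.61), collagen genes listed as stellate cell markers, the bile duct keratin gene Krt19 (-0.50) and Traf6 (0.52), all on the log2 scale. Most genes outside the set were named because they were called, so the 4 is not a share of a fixed list. Over all genes 0.607% were called for this difference. The Krt19 call was lost in 15 of 36 alternatives, among them equal array medians (adjusted p = 0.084) and a second quantile normalization (adjusted p = 0.121). Traf6 was lost with the replicate block (adjusted p = 0.0559) and without germ-free mice 5 and 6 of both diets (adjusted p = 0.067). Both collagen calls were lost without lard conventional mouse 2 and without lard germ-free mouse 1 (adjusted p between 0.0516 and 0.0538).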

How the results depend on the processing

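The 45 differences of the 9 genes were recomputed under up to 38 alternatives each, 1686 values in all. Of these, 1660 kept their side of the threshold, 24 newly passed, 2 were lost (Nfkbia, named in the report) and 0 called values changed sign; 67 values called in neither fit did change sign. For fish oil against lard in germ-free mice, 3 members were called with equal array medians and with array weights, and 2 in the comparison's own groups, with a covariate for the clock (Dbp minus Arntl) and without fish oil conventional mice 5 and 6; leaving out each mouse in turn gave 1 to 2. In conventional mice 1 was called with array weights, and 0 to 1 with a mouse left out (Lbp, without fish oil conventional mouse 3 or 4). For germ-free against conventional mice on lard, 1 (Lbp) was called in the own groups and without fish oil conventional mice 5 and 6. On fish oil, 1 was called in the own groups, and 1 to 4 with a mouse left out: 4 without fish oil conventional mouse 3, 1 without fish oil germ-free mouse 1. There Tlr2 newly passed with 24 separate arrays (adjusted p = 0.0372), with array weights (adjusted p = 0.0128) and among genes above the median signal (adjusted p = 0.0485). The difference between diet effects gave 1 with the clock index (Tlr3, adjusted p = 0.0496). That index was uneven between groups, at 1.96 to 4.59 in lard livers. Fish oil conventional mice 1, 2, 5 and 6 lay between -2.04 and 0.05, and mice 3 and 4 at 2.49 and 3.66. Fish oil germ-free mice 5 and 6 stood at 0.12 and -0.77, and the other mice of that group between 3.24 and 4.09. The causes were not tested.

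The mouse numbers were checked for pairing across groups: 9 of 24 same-numbered correlations passed 0.1 (range -0.4 to 0.43) and 3 were best with their own number. For fish oil against lard in germ-free mice they lay between 0.04 and 0.43, with 4 of 6 above 0.1 and 2 best with their own number. The highest there were mice 5 (0.43) and 6 (0.25). Whether the numbers mark a shared batch was not tested. With the number as a replicate block the members called were 1 and 0 for fish oil against lard in germ-free and conventional mice, 3 and 0 for germ-free against conventional on fish oil and lard, and 0 for the difference between diet effects, where the count over all genes was 40 against 121. The same block on 24 separate arrays, added after seeing the data, called 2 members for fish oil against lard in germ-free mice (Tlr3, and Lbp at adjusted p = 0.0438). Counts over all genes for fish oil against lard in conventional mice were the least stable: 0 in the own groups and 743 without fish oil conventional mouse 4, beside 161. Over the alternatives the 72 pathway genes gave 13 to 18 calls for germ-free against conventional mice on fish oil, 0 to 8 on lard, 8 to 19 for fish oil against lard in germ-free mice and 0 to 3 in conventional mice.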

Other observations

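Of 16 acute phase genes, 2 were called on fish oil against lard in germ-free livers, both higher, beside 4.58% of all genes called higher. They were the fibrinogen chain genes Fga (0.60 ± 0.11 on the log2 scale, SE) and Fgg (0.20 ± 0.05). Neither was called without germ-free mice 5 and 6 of both diets (0.47, adjusted p = 0.054, and 0.15, adjusted p = 0.22). The list did not move as 1: 7 of the 16 differences were above 0 and 9 below, with a median of -0.04. Before adjustment 5 were higher and 2 lower at a limma p under 0.05, beside 25.2% of all genes in either direction. The acid glycoprotein gene Orm3 rose by 1.32 ± 0.31 in germ-free against conventional livers on lard, a call lost in 10 of 38 alternatives (adjusted p between 0.051 and 0.0728). They included the replicate block and leaving out lard conventional mouse 2, 3 or 4 or lard germ-free mouse 1, 2, 3 or 4. Of the 16, 9 had differences below 0 in germ-free against conventional livers on lard, with a median of -0.01. The other comparisons called 0 of 16 in limma. Before adjustment, 4 had a limma p under 0.05 for fish oil against lard in conventional mice, all higher, beside 16.6% of all genes. For germ-free against conventional mice on fish oil 3 did, all lower, beside 20.3% of all genes. For the difference between diet effects 4 did, all lower, beside 12.2% of all genes. Of 10 neutrophil markers, of which 6 lay below the 25th percentile of genes, Csf3r fell by 0.39 ± 0.11 in germ-free against conventional livers on fish oil, a call lost in 10 of 37 alternatives. They included equal array medians (adjusted p = 0.065), a second quantile normalization (0.102), the comparison's own groups (0.124), and leaving out fish oil conventional mouse 4 or fish oil germ-free mouse 1, 2 or 5 (up to 0.0814).

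In germ-free against conventional livers on lard, 2 of 6 stellate cell, 1 of 4 cholangiocyte and 1 of 5 dendritic cell markers were called higher and 0 of these lower, beside 1.13% of all genes called higher. They were the collagen genes Col1a1 (0.65 ± 0.10) and Col3a1 (0.57 ± 0.08), the epithelial gene Epcam (0.54 ± 0.11) and the dendritic cell integrin gene Itgax (0.41 ± 0.11, adjusted p = 0.0495 in limma). The Itgax call was lost in 19 of 37 alternatives. Of the other members, 2 of 4 stellate cell and 2 of 4 dendritic cell markers had differences below 0.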
